A study of Mus musculus with 48 samples.

Results

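Nucleolin, nucleophosmin and fibrillarin are the abundant proteins of the nucleolus, and the mRNAs that encode them were followed here in mPDAC cells treated with a nucleolin antagonist. The set held 4 genes, Ncl (nucleolin), Npm1 (nucleophosmin), Npm3 (nucleoplasmin 3, a relative of nucleophosmin) and Fbl (fibrillarin). They were chosen by gene symbol among 50600 genes listed, and all 4 were among the 13889 genes with enough counts to be tested. The mPDAC line is a mouse pancreatic ductal adenocarcinoma cell line, labelled as FVB/N x C57BL6 background from an 8-week-old animal. Treated cultures (N6L) received the pseudopeptide N6L, a synthetic ligand of nucleolin, at 50 µM for 48 h, and non-treated cultures (NT) received none. Cytoplasmic RNA and RNA of pooled polysomal fractions of a sucrose gradient were sequenced from 3 cultures per treatment, which gave 4 groups of 3 libraries. All libraries came from the same cell line, so the cultures are replicates of that line and not of animals, and all poly(A) RNA was taken after emetine, which holds ribosomes on the mRNA.

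Nucleolin is a multifunctional RNA-binding protein that acts in transcription of ribosomal genes, in the first steps of pre-rRNA processing and on mRNAs outside the nucleolus. Nucleophosmin is a histone and RNA chaperone that shuttles ribosomal material out of the nucleus and forms much of the granular, outer part of the nucleolus, and nucleoplasmin 3 joins it in mixed complexes. Fibrillarin is the methyltransferase of the box C/D small nucleolar ribonucleoproteins, which place 2′-O-methyl groups on rRNA. Many tumours with enlarged nucleoli make large amounts of these proteins, and nucleolin at the cell surface is the reported target of N6L.

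In the mouse reference genome GRCm38, Ncl (ENSMUSG00000026234) lies at chr1:86344719-86359400 on the minus strand with 14 exons. Npm1 (ENSMUSG00000057113) lies at chr11:33152287-33163206 on the minus strand with 11 exons. Npm3 (ENSMUSG00000056209) is the shortest of the set, at chr19:45747734-45749591 on the minus strand with 6 exons. Fbl (ENSMUSG00000046865) lies at chr7:28169710-28179269 on the plus strand with 9 exons. The coding sequences are 2121 bases long in Ncl, 876 in Npm1, 525 in Npm3 and 981 in Fbl. Their GC content separates the genes into pairs, 44.7% in Ncl and 42.2% in Npm1 against 57.5% in both Npm3 and Fbl, where the median over the tested genes with a coding sequence was 53.1%. The first 90 coding bases, from the GENCODE transcripts, are printed because base composition moved with the results described further on. G and C are in capitals.
Ncl: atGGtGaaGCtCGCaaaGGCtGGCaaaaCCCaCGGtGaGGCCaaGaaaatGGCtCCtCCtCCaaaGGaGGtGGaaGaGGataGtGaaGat
Npm1: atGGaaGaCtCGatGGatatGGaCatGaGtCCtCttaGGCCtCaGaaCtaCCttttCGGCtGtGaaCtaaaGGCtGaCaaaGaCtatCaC
Npm3: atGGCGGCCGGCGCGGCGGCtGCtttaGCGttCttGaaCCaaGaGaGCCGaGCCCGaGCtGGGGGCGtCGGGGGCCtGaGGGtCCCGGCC
Fbl: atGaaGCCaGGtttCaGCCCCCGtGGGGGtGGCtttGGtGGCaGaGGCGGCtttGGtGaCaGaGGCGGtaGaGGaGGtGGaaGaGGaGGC
The stretch holds 73.3% G and C in Npm3 and 63.3% in Fbl, against 52.2% in Ncl and 45.6% in Npm1. The run of GG dinucleotides in Fbl encodes the start of the glycine- and arginine-rich region for which fibrillarin, like nucleolin, is known.

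The summed libraries held 19519911 to 44972333 counts. The 4 technical replicates of a library gave the same member levels up to sampling noise in most libraries, since the chi-square of their counts, divided by its degrees of freedom, had a median of 0.864 for Ncl, 0.997 for Npm1, 1.01 for Npm3 and 0.613 for Fbl, and was at most 4.59 in any library. A second label field assigned 3 of the cytoplasmic replicates of N6L culture 2 to culture 1. Over all genes this chi-square was 1.01 to 1.04 between them and the remaining replicate of culture 2 and 11.2 to 11.5 between them and culture 1, so they were kept with culture 2. The polysomal library of N6L culture 3 deviated most from its group, by an SD of 0.422 over genes on the log2 scale against 0.175 to 0.353 in the other libraries. Of the ductal markers, keratins and Muc1 were abundant and the 8 markers summed to between 7111 and 9866 CPM (counts per 1e6 of the library), but Epcam was nearly absent with 42 counts in the 12 libraries. Fibroblast, leukocyte and endothelial marker lists summed to at most 2.45 CPM in any library, with Ptprc at 10 and Lum at 0 counts. Of 7 acinar and endocrine markers 6 were at 0 counts, while Cela1, an elastase gene, had 15681 counts and 29.8 to 76.0 CPM over the libraries.

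From here on, CPM values are scaled by the trimmed mean of M values (TMM). In non-treated cytoplasm Npm1 reached 1669 ± 156 CPM, Ncl 1336 ± 315, Npm3 180 ± 31.5 and Fbl 99.0 ± 19.8 (SD, n = 3 each). Levels were also taken per kilobase of coding sequence, a scale that leaves out untranslated bases. The same libraries gave 1905 ± 179 CPM per kb for Npm1, 630 ± 149 for Ncl, 342 ± 59.9 for Npm3 and 101 ± 20.2 for Fbl. Npm1 therefore stood first on both scales, and Npm1 and Ncl were separated by more than their spread only per kilobase. Ncl is annotated with a transcript of 8202 bases, which is mostly untranslated, so its level per kilobase of transcript depends on how much of that end the cells use. On that scale non-treated cytoplasm gave 163 ± 38.5 for Ncl and 202 ± 35.4 for Npm3. The order of Ncl and Npm3 thus depends on the length used. Among 12123 genes with a coding length, the rank of the level per coding kilobase ran from 79 to 491 over the libraries for Npm1, from 237 to 2075 for Ncl, from 487 to 959 for Npm3 and from 1733 to 2961 for Fbl. The position of Ncl moved most, and its lowest rank belonged to a polysomal library of N6L.

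**Figure D1:**
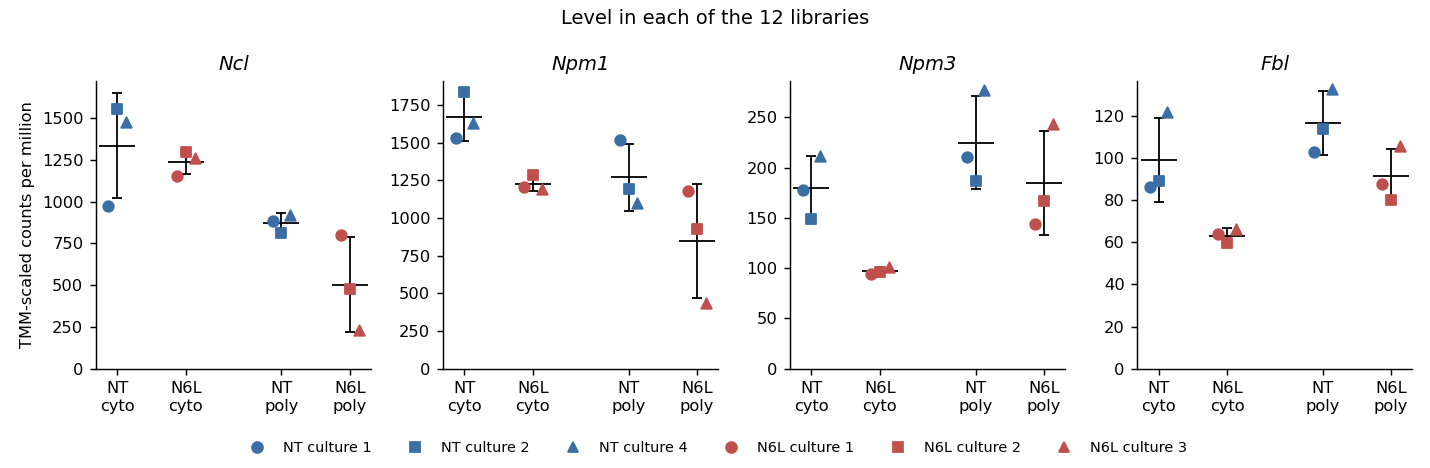
TMM-scaled CPM of the 4 genes (y axis, linear from 0) in the cytoplasmic and polysomal libraries of NT (blue) and N6L (red) cultures, with a mark for each culture, a horizontal bar for the mean and error bars for the SD. The 3 N6L cytoplasmic libraries lie below the 3 NT ones for Npm1, Npm3 and Fbl, and the N6L polysomal libraries of Ncl spread from 231 to 798.

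The first question was whether 48 h of N6L altered the amount of these mRNAs in the cytoplasm. Npm3 and Fbl mRNA fell with N6L, whereas Npm1 and Ncl did not pass the test. Of the 4 genes 2 were called at an adjusted p under 0.05, both lower, where 28.3% of all tested genes were called and 13.8% were called lower. All N6L libraries lay below all NT libraries for 3 of the 4, against 25.6% of all tested genes.

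Npm3 stood at 178, 149 and 212 CPM in the cytoplasm of NT cultures 1, 2 and 4, and at 94.1, 96.3 and 101 CPM in N6L cultures 1, 2 and 3. The groups did not overlap, and the N6L cultures were close to each other, with a coefficient of variation of 3.46% against 17.5% in NT. The fitted log2 difference was -0.89 (SE 0.21, adjusted p = 0.00843), a level that fell by 46.0%.

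Fbl stood at 86.2, 89.2 and 122 CPM in NT and at 63.9, 59.5 and 66.4 CPM in N6L. Again every N6L culture was below every NT culture, and NT culture 4 was the highest for Fbl as for Npm3. The log2 difference was -0.65 (SE 0.17, adjusted p = 0.0147), a level that fell by 36.1%. Without N6L culture 2 the estimate stayed at -0.65 and the adjusted p became 0.0656.

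Npm1 gave 1532, 1840 and 1634 CPM in NT against 1208, 1283 and 1190 CPM in N6L. These groups did not overlap either, but the log2 difference of -0.44 (SE 0.26) had an adjusted p of 0.210. In a fit of the cytoplasmic libraries alone, with its own estimate of the spread, Npm1 was called at -0.48 (adjusted p = 0.013). That fit called 5666 genes in all, against 3935 in the fit of all libraries.

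Ncl, whose product N6L binds, gave 974, 1556 and 1477 CPM in NT and 1157, 1297 and 1261 CPM in N6L. The N6L values lay inside the NT range, since NT culture 1 was far below the other NT cultures, and the log2 difference was -0.11 (SE 0.31, adjusted p = 0.812). Its sign turned to 0.015 without NT culture 2 and to 0.038 when libraries were scaled by their totals alone, so no direction is given for Ncl in the cytoplasm. With 3 cultures against 3, an exact two-sided permutation test of the log2 levels cannot go below p = 0.1, the value reached by Npm1, Npm3 and Fbl (0.133 adjusted over the 4 genes), while Ncl gave 0.8.

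Polysomal RNA is the part of an mRNA that sediments with several ribosomes. In this fraction 0 of the 4 genes were called by edgeR, where 9.67% of all tested genes were, although Ncl and Npm1 had unadjusted p-values of 0.0233 and 0.0424, and those of Npm3 and Fbl were 0.187 and 0.060.

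Ncl gave 885, 813 and 923 CPM in NT polysomes and 798, 478 and 231 CPM in N6L polysomes. The groups did not overlap, as was so for 11.9% of tested genes in this direction, and the N6L cultures differed from each other by 3.46-fold against 1.14-fold in NT. The log2 difference was -0.80 (SE 0.31, adjusted p = 0.122). Without N6L culture 1, the highest of its group, Ncl was called at -1.30 (adjusted p = 0.015), and without N6L culture 3, the lowest, it was at -0.45 (adjusted p = 0.224).

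Npm1 followed the same order of cultures in N6L, 1179, 925 and 436 CPM, against 1518, 1192 and 1099 CPM in NT. N6L culture 1 lay inside the NT range and culture 3 far below it. The log2 difference was -0.58 (SE 0.26, adjusted p = 0.171), and leaving out N6L culture 1 gave -0.90 and leaving out culture 3 gave -0.27.

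Npm3 ran through the N6L cultures in the opposite order, 144, 167 and 243 CPM, beside 211, 187 and 277 CPM in NT. The log2 difference was -0.29 (SE 0.21, adjusted p = 0.403), with -0.53 without N6L culture 3 and -0.10 without NT culture 4. Fbl gave 103, 114 and 133 CPM in NT and 87.9, 80.3 and 106 CPM in N6L, with a log2 difference of -0.35 (SE 0.17, adjusted p = 0.210). For both genes the groups overlapped through N6L culture 3. The polysomal estimates of all 4 genes were negative, and none passed the threshold.

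The polysome-to-cytoplasm ratio compares both fractions of a culture and shows which share of an mRNA was loaded on polysomes, relative to the average mRNA of the libraries. Here the set separated into Ncl and Npm1, below 0 on the log2 scale in all 6 cultures, and Npm3 and Fbl, above 0 in all 6. The ratio lay below 0 in every culture for 22.6% of tested genes and above 0 in every culture for 24.1%.

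For Ncl the log2 ratio was -0.14, -0.94 and -0.68 in NT cultures 1, 2 and 4 and -0.54, -1.44 and -2.45 in N6L cultures 1, 2 and 3. Npm1 gave -0.014, -0.63 and -0.57 in NT and -0.035, -0.47 and -1.45 in N6L. In both genes culture 1 of each treatment was nearest to 0 and N6L culture 3 was the lowest.

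Npm3 gave log2 ratios of 0.24, 0.33 and 0.39 in NT and of 0.61, 0.79 and 1.27 in N6L, so that every N6L culture lay above every NT culture. Fbl gave 0.25, 0.35 and 0.12 in NT and 0.46, 0.43 and 0.67 in N6L, also without overlap. Non-overlapping ratios in either direction were found for 29.7% of tested genes.

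**Figure D2:**
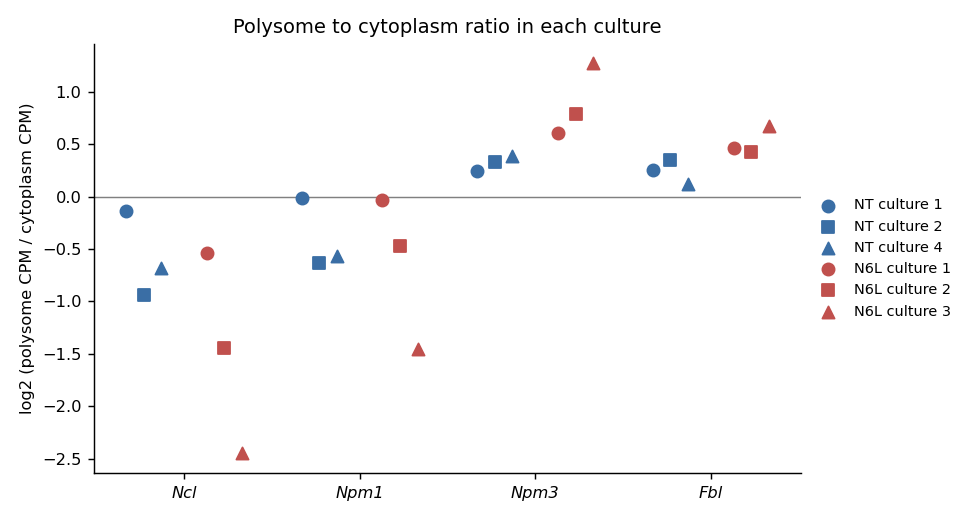
Log2 ratio of polysomal to cytoplasmic CPM (y axis) of each gene (x axis) in each NT (blue) and N6L (red) culture. Ncl and Npm1 lie below 0 in all cultures with N6L culture 3 lowest at -2.45 and -1.45, while Npm3 and Fbl lie above 0 and higher in the N6L cultures than in the NT cultures.

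Within NT cells none of the 4 ratios was called, with log2 values of -0.61 (SE 0.31) for Ncl, -0.39 (SE 0.26) for Npm1, 0.32 (SE 0.21) for Npm3 and 0.23 (SE 0.17) for Fbl, and adjusted p-values from 0.416 to 0.539. Only 0.209% of tested genes were called in this comparison, 29 genes, although 1855 genes had an unadjusted p under 0.05.

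Within N6L cells 3 of the 4 genes were called, where 39.0% of all tested genes were. Ncl mRNA was lower in polysomes than in cytoplasm (log2 -1.30, SE 0.32, adjusted p = 0.00837). Npm3 was higher in polysomes (log2 0.93, SE 0.21, adjusted p = 0.00654), as was Fbl (log2 0.53, SE 0.17, adjusted p = 0.0261). Npm1 had a log2 ratio of -0.54 (SE 0.26, adjusted p = 0.115). With the culture as a block, which uses that both fractions came from one lysate, Npm1 was called as well at -0.65 (adjusted p = 0.0439). The block fit called 7460 of 13889 genes for this ratio, against 5415 without the block. The call of Ncl was lost without N6L culture 2 (-1.22, adjusted p = 0.0651), and that of Fbl was lost without any of the 3 N6L cultures, with adjusted p-values of 0.0585, 0.083 and 0.137 without cultures 1, 2 and 3.

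The translational index (TI) is the difference between the N6L ratio and the NT ratio on the log2 scale. It was -0.69 (SE 0.44) for Ncl, -0.14 (SE 0.37) for Npm1, 0.60 (SE 0.29) for Npm3 and 0.30 (SE 0.24) for Fbl, with adjusted p-values from 0.555 to 0.877. None of these passed, and 0 of 13889 genes (0.0%) passed with edgeR or with DESeq2, while 1074 genes had an unadjusted p under 0.05. The unadjusted p of Npm3 was 0.0579. Leaving out N6L culture 1 moved the index of Ncl to -1.24, and leaving out culture 3 moved it to -0.33 and that of Npm3 to 0.38. With the offset for transcript length and GC content that is described with the base composition, Ncl was at -0.17 and Npm3 at 0.23. An exact two-sided permutation of the ratios gave p = 0.1, the smallest it allows, for Npm3 and Fbl (0.2 adjusted over the 4 genes), 0.3 for Ncl and 0.8 for Npm1. The called ratios within N6L cells are thus not shown to differ from those within NT cells.

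Transcript length and base composition moved with these comparisons over the whole table. Over 13867 genes the log2 polysome-to-cytoplasm ratio in N6L cells had a Spearman correlation of 0.54 with transcript GC content and of -0.62 with transcript length, and the cytoplasmic log2 difference correlated by -0.22 with GC content and by 0.50 with length. These are descriptions across genes that share the same libraries. Npm3 and Fbl have short transcripts of 888 and 1197 bases with a GC content of 52.8% and 56.7%, and Npm1 has 1633 bases with 42.4%, where the medians of tested genes were 2758 bases and 50.4%. The annotated Ncl transcript has 8202 bases with 42.8%. How much of its long untranslated part the cells use is not known, so offset values of Ncl that use transcript length rest on an uncertain length.

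The fit was therefore repeated with an offset for each library that removes the smooth trend of the counts over length and GC content, once for the transcript and once for the coding sequence. A coding length was known for 87.3% of tested genes, and in the coding fit the others took the median offset of each library. Shares of genes called include them. In N6L cells, with the transcript offset, 0 of the 4 polysome-to-cytoplasm ratios were called, where 16.8% of genes were. Ncl moved to -0.31 (adjusted p = 0.384), Npm3 to 0.29 (0.086) and Fbl to -0.13 (0.442), below 0. The coding offset also left 0 of 4 called (16.5% of genes), with Ncl at -0.53 (adjusted p = 0.103), Npm3 at 0.28 (0.0757) and Fbl at 0.12 (0.488). Npm1 gave -0.43 and -0.22. With the culture block and the transcript offset together, Npm3 was called at 0.28 (adjusted p = 0.0309) and Npm1 at -0.50 (0.0492), where 4575 of 13889 genes were called.

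In the cytoplasm all 4 estimates were negative under both offsets. The transcript offset called Npm3 at -0.36 (adjusted p = 0.0273) and Ncl at -0.69 (0.042), 2 of 4 where 28.6% of genes were called, and it left Fbl at -0.16 (0.265) and Npm1 at -0.31 (0.281). The coding offset called Npm3 at -0.46 (adjusted p = 0.00497) and Fbl at -0.48 (0.00931), 2 of 4 where 31.9% were called, and gave Ncl -0.51 (0.0894) and Npm1 -0.39 (0.122). Npm3 was thus lower in every version, with a size that went from -0.89 to -0.36, and the values of both Npm3 and Ncl moved with either offset. Fbl went from -0.65 to -0.16 with the transcript offset and lost its call there.

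In the polysomes Ncl was called at -0.86 (adjusted p = 0.0215) with the transcript offset, 1 of 4 where 20.8% of genes were called. The coding offset called Ncl at -0.84 (adjusted p = 0.0172) and Fbl at -0.46 (0.0179), 2 of 4 where 20.6% were called. Npm1 gave -0.43 and -0.44 and Npm3 -0.13 and -0.27, neither of them called. The polysomal value of Ncl differed little between the fits, from -0.80 to -0.86, while its error shrank. What part of each difference comes from length and composition was not tested beyond these fits.

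**Figure D3:**
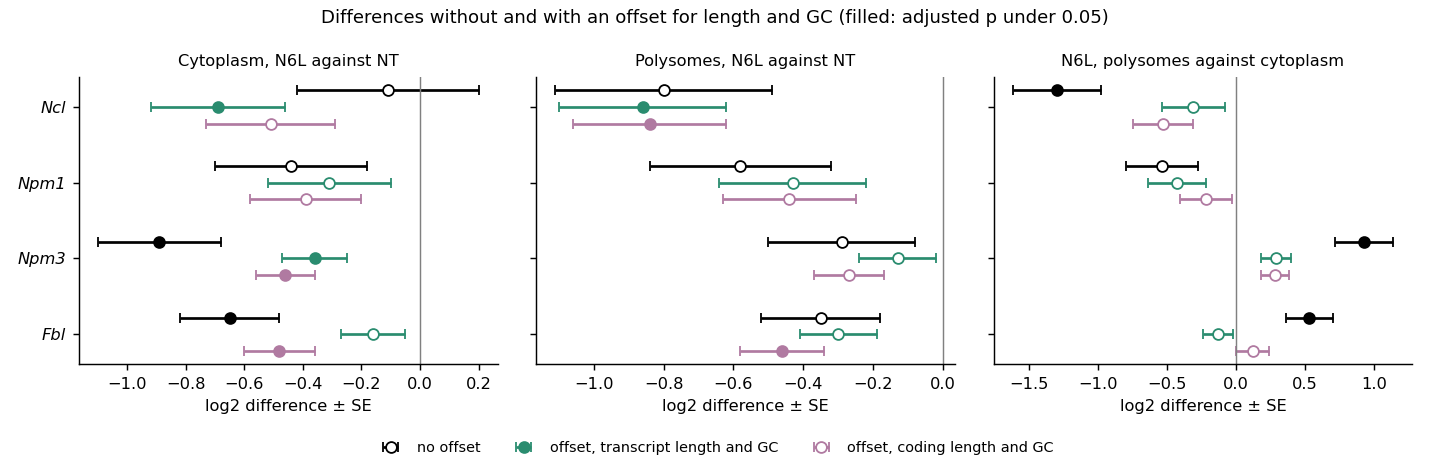
Log2 differences with their SE (x axis) of the 4 genes (y axis) for N6L against NT in cytoplasm and polysomes and for polysomes against cytoplasm in N6L cells, without an offset (black) and with an offset for transcript (green) or coding (purple) length and GC content; filled marks have an adjusted p under 0.05. The polysome-to-cytoplasm values move towards 0 with either offset, Ncl from -1.30 to -0.31 and Npm3 from 0.93 to 0.29 with the transcript offset, whereas the cytoplasmic and polysomal treatment differences all stay below 0.

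The ratio of the counts of a pair of genes within a library needs no scaling between libraries, and 12 such ratios were compared, 6 pairs in each fraction. In the cytoplasm 4 of the 6 ratios did not overlap between NT and N6L, where 51.3% of all pairs of tested genes with counts in every library did not, and in the polysomes 0 of 6, where 27.2% of all pairs did not. The log2 ratio of Ncl to Npm1 was -0.65, -0.24 and -0.15 in NT cytoplasm and -0.062, 0.015 and 0.083 in N6L cytoplasm, so the genes came to nearly equal counts. As group means the log2 ratio of Ncl to Npm3 went from 2.88 ± 0.47 in NT to 3.67 ± 0.069 in N6L (SD, n = 3), that of Ncl to Fbl from 3.74 ± 0.34 to 4.29 ± 0.14, and that of Npm3 to Fbl from 0.86 ± 0.17 to 0.62 ± 0.071. All 4 had the smallest possible p of 0.1 in the exact two-sided permutation test, which became 0.3 after adjustment over the 12 ratios, so none passed.

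In polysomes the ratio of Ncl to Npm3 was 2.07, 2.12 and 1.74 in NT and 2.47, 1.52 and -0.073 in N6L. In the third N6L culture the mRNA of nucleolin, otherwise several times more frequent, thus had about as many polysomal counts as that of nucleoplasmin 3. Without that library the difference between treatments turned from -0.67 to 0.018. Npm3 to Fbl stayed within 0.71 to 1.20 in all polysomal libraries, and Ncl to Npm1 within -0.95 to -0.25.

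**Figure D4:**
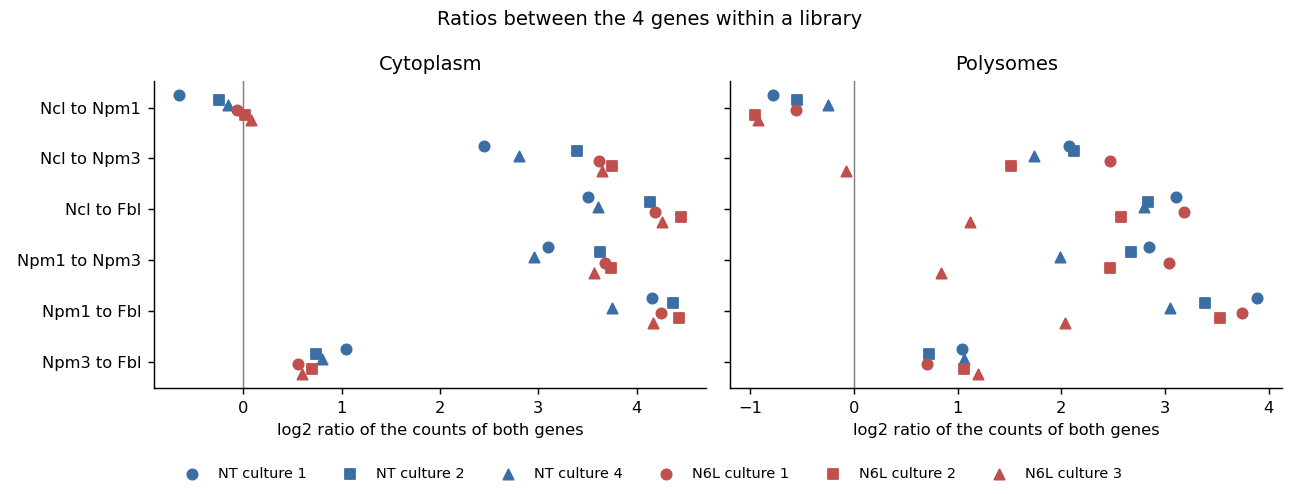
Log2 ratio of the counts of both genes named (x axis) for the 6 pairs (y axis) in the cytoplasm (left) and the polysomes (right) of each NT (blue) and N6L (red) culture. In the cytoplasm the N6L marks of Ncl to Npm1, Npm3 and Fbl lie to the right of the NT marks, and in polysomes the third N6L culture lies far to the left in the pairs of Ncl or Npm1 with Npm3 or Fbl.

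Processed pseudogenes that resemble the mRNAs could share reads with them, and how the authors' counting treated such reads is not given in the sources used here. The copies held 0.643% as many counts as Npm1, 0.524% as many as Fbl and 0.000842% as many as Ncl. For Npm3 a single copy on chromosome 6, Npm3-ps1, held 8095 counts against 58631 of Npm3, or 13.8%. Npm3-ps1 differs from the Npm3 mRNA at 6 of 528 bases (98.9% identity), with an identical run of 177 bases, so reads of the copy and the gene can be told apart only where they cover a difference. The last 60 coding bases of Npm3 (chr19:45748174-45748233, minus strand) and the matching bases of the copy are printed to show how close they are, with the bases that differ in capitals.
Npm3: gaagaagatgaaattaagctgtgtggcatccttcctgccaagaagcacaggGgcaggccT
Npm3-ps1: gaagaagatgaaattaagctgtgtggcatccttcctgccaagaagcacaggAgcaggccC
The copy took 7.94% to 13.7% of the counts of both in every library, and it moved as Npm3 did, with a cytoplasmic log2 difference of -0.71 (SE 0.22, adjusted p = 0.0272) and a log2 ratio in N6L cells of 0.86 (SE 0.22, adjusted p = 0.00949). Adding the counts of the copies to the genes changed no call of the 4 genes. Npm3 also overlaps an antisense gene, Gm15491, which had 272 counts, and the small nucleolar RNAs and the microRNA that lie within Ncl had at most 2 counts each.

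The partners of these proteins were examined as lists. In the cytoplasm the median log2 difference over all tested genes was 0.042. The nucleoplasmin family had Npm3 alone called, Npm1 as above, and Npm2, the egg form of the family, at 1.03 CPM or less as a group mean with a log2 difference of -1.11 (adjusted p = 0.0649).

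Of the 4 core proteins of the box C/D particle, 3 were called lower in the cytoplasm, where 13.8% of all tested genes were, and the median was -0.54. Snu13, which binds the kink of the guide RNA, fell most, from 68.2 ± 13.8 to 32.2 ± 0.772 CPM (SD, n = 3, log2 -1.08, adjusted p = 0.00228), and Nop56, a scaffold of the particle, least, from 216 ± 6.56 to 160 ± 9.47 CPM (log2 -0.44, adjusted p = 0.0344). Nop58, the scaffold that pairs with Nop56, gave -0.059 (adjusted p = 0.876). Fbl, their catalytic partner, lay between Snu13 and Nop56. In polysomes Nop56 alone was called lower (log2 -0.61, adjusted p = 0.0194), where 3.66% of all genes were. With the transcript offset Nop56 was again the only one called lower in polysomes (10.1% of all genes). The coding offset called 3 of the 4 lower there (10.3%).

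The box H/ACA particle, which converts uridine to pseudouridine, had 3 of 4 genes called lower in the cytoplasm (13.8% of all genes), with a median of -0.91. Nhp2 fell from 277 ± 72.3 to 110 ± 8.01 CPM (SD, n = 3, log2 -1.33, adjusted p = 0.00236), Gar1 by 0.93 on the log2 scale (adjusted p = 0.00853) and Nop10 by 0.88 (0.0179). Dkc1, the pseudouridine synthase itself, gave 0.34 (adjusted p = 0.338). With the transcript offset Snu13 alone was called lower in the cytoplasm in the box C/D list (-1.07, adjusted p = 0.00303), and Nhp2 and Gar1 in the box H/ACA list, where 15.3% of all genes were. With the coding offset the counts were 3 and 2 (17.3% of all genes). In polysomes 0 of the 4 box H/ACA genes were called, where 9.67% of all genes were. Nhp2 and Gar1 were called lower there with the transcript offset (10.1% of all genes) and with the coding offset (10.3%).

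Of 20 proteins of nucleolar assembly and pre-rRNA processing, 5 were called lower in the cytoplasm (13.8% of all genes) and 0 higher (14.5%), with a median of -0.28. Rrp9, of the U3 particle, fell from 112 ± 21.6 to 59.4 ± 3.10 CPM (SD, n = 3, log2 -0.92, adjusted p = 0.0136), and Wdr12, which joins Pes1 and Bop1 in processing of the large subunit RNA, fell by 0.42 on the log2 scale (adjusted p = 0.0388). Pes1 and Bop1 gave -0.37 and -0.32 and were not called. In polysomes 5 of the 20 were called lower, where 3.66% of all tested genes were called lower. Tcof1 (treacle) had the largest polysomal difference of these, from 214 ± 15.5 to 88.7 ± 43.1 CPM (SD, n = 3, log2 -1.27, adjusted p = 0.0133). With the transcript offset the list had 7 lower in the cytoplasm (15.3% of all genes) and 11 in polysomes (10.1%), and with the coding offset 11 (17.3%) and 12 (10.3%), with Surf6 called higher in the cytoplasm. Without N6L culture 3 the list had 4 lower in polysomes, where 2.91% of all genes were, and 4 lower in the cytoplasm (13.4%).

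Of 11 RNA polymerase I genes, 1 was called in the cytoplasm (28.3% of all genes) and 0 in polysomes (9.67%), and the cytoplasmic median was -0.17. The called gene was Polr1d, a subunit shared with RNA polymerase III, which fell from 171 ± 31.8 to 86.5 ± 2.94 CPM (SD, n = 3, log2 -0.98, adjusted p = 0.00414). With the transcript offset 3 were lower in the cytoplasm (15.3% of all genes), and in polysomes 4 were lower (10.1%) and 1, Polr1c, was higher (10.7%). With the coding offset 4 were lower in the cytoplasm (17.3%) and 0 were called in polysomes (20.6%).

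Among 4 genes that act with nucleophosmin in the p53 response, Mdm2, the ubiquitin ligase of p53, rose from 39.6 ± 7.61 to 73.8 ± 7.92 CPM (SD, n = 3, log2 0.90, adjusted p = 0.0153), and 14.5% of all tested genes were called higher in the cytoplasm. Cdkn2a, which encodes the nucleolar ARF protein that nucleophosmin holds, fell from 195 ± 23.0 to 105 ± 6.33 CPM (log2 -0.89, adjusted p = 0.00694), where 13.8% of all genes were called lower. The transcript offset removed the call of Cdkn2a (-0.27, adjusted p = 0.0836), while that of Mdm2 held under both offsets. Trp53 gave -0.37 (adjusted p = 0.0508) and Cdkn1a 0.042 (0.865). The coding offset called Cdkn2a lower at -0.46 (adjusted p = 0.00334), Trp53 lower at -0.33 (0.0384) and Cdkn1a, an inhibitor of the cell cycle that p53 induces, higher at 0.47 (0.0266). With Mdm2 this made 2 lower and 2 higher of the 4, where 31.9% of all genes were called in either direction.

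Of 9 other RNA-binding proteins with RGG repeats, Serbp1 was called lower in the cytoplasm (log2 -0.47, adjusted p = 0.0256), where 13.8% of all genes were. Caprin1 was called higher, where 14.5% were, from 166 ± 44.1 to 368 ± 32.3 CPM (SD, n = 3, log2 1.15, adjusted p = 0.00829). The list median was -0.037. Both cytoplasmic calls held under both offsets. The transcript offset also called G3bp1 lower in the cytoplasm at -0.51 (adjusted p = 0.0114), where 15.3% of all genes were. In N6L cells 4 of the 9 were called lower in polysomes than in cytoplasm (20.6% of all genes) and 0 higher (18.4%), with a median of -0.55. These calls depended on the offset. The transcript offset called Hnrnpa2b1 (-0.53, adjusted p = 0.0341) and Taf15 (-0.98, 0.0284) lower, where 7.17% of all genes were, and G3bp1 (0.68, 0.00751) and Serbp1 (1.65, 0.00402) higher, where 9.63% were. The coding offset called Hnrnpu alone, lower at -0.63 (adjusted p = 0.0394), where 7.25% of all genes were called lower and 9.24% higher. Prmt1, the main methyltransferase of such repeats, gave -0.38 in the cytoplasm (adjusted p = 0.111). Of its 3-gene list Wdr77, the partner of Prmt5, was called lower (log2 -0.69, adjusted p = 0.0104), where 13.8% of all genes were. Of 4 genes for kinases that phosphorylate nucleolin and nucleophosmin, 2 were called lower in the cytoplasm, where 13.8% of all genes were. Csnk2b, the regulatory subunit of casein kinase 2, fell by 0.70 on the log2 scale (adjusted p = 0.0136) and Cdk1 by 0.67 (adjusted p = 0.00687). The catalytic subunits Csnk2a1 and Csnk2a2 gave -0.18 and -0.32 and were not called. With the transcript offset this order turned, with Csnk2b at -0.18 (adjusted p = 0.177) and Csnk2a1 (-0.51, 0.0154) and Csnk2a2 (-0.85, 0.00135) called lower. Cdk1 was called lower as well (-1.03, 0.00309), 3 of 4 where 15.3% of all genes were. With the coding offset Csnk2b (-0.42, adjusted p = 0.0226), Csnk2a2 (-0.33, 0.0304) and Cdk1 (-0.60, 0.00722) were called lower, 3 of 4 where 17.3% of all genes were.

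Over the 12 libraries the 4 genes formed the same pairs as in their polysome-to-cytoplasm ratios. Both come from the same values, so this is not a second observation. The log2 levels of Ncl and Npm1 had a Pearson r of 0.91 and those of Npm3 and Fbl of 0.94, while r was -0.45 for Ncl with Npm3 and -0.084 for Npm1 with Fbl. These values describe 12 libraries that share treatment, fraction and composition effects. When the comparison was limited to genes averaging 10 CPM or more, the genes most like Ncl included Wdr43 (r = 0.989), Ndc80, Kif23 and Trmt5, these 4 with transcripts of 44.1% to 46.3% GC. The genes most like Npm1 were Cct4 (r = 0.972), Parp2, Fancb, Hyls1 and Mtbp. Npm3 was most like Ppp1r11 and Psma7 (both r = 0.997), Hint1, Mrpl20 and Srsf9. Fbl was most like Mcrip2 (r = 0.983), Mrpl52, Tsfm, Aprt and Lsm4, all with 53.7% to 61.6% GC.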

How the data were processed

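Poly(A) RNA of cytoplasmic and pooled polysomal fractions was made into libraries with a stranded kit, aligned by the authors with STAR and counted per gene with HTSeq-count 0.5.3 (the submitters' notes name mm10). The deposited values are raw counts, not normalized. Which annotation was counted, whether strand was used and what became of multi-mapping reads is not given in the sources used here. Symbols, lengths and sequences came from GENCODE vM21 (GRCm38), which held 50376 of 50600 genes.

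The 4 technical replicates of a library were summed. After filterByExpr and TMM scaling, edgeR 4.0.16 in R 4.3.3 was used (quasi-likelihood test, 1 mean per fraction and treatment, all 12 libraries, Benjamini-Hochberg limit 0.05). CPM values are shares of a library, so a change in total RNA is not measured. Log2 levels used a prior count of 2. DESeq2 1.42.0 was an alternative. Exact permutation tests were two-sided. Offsets were loess surfaces (span 0.3). Copies were pseudogenes with at least 90% identity over 100 bases. On simulated counts of the cytoplasmic comparison over 13724 genes, the test called 62.1% of 95 genes simulated with a log2 change of 1 and 100% of 105 with a change of 2, with 6 false calls.

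Both fractions of a culture came from one lysate, and over genes the correlation of their deviations was 0.364, 0.452 and 0.645 in NT cultures 1, 2 and 4 and 0.0368, 0.199 and 0.229 in N6L cultures 1, 2 and 3. The genes and lists were chosen with earlier results of these data known. Genes named are the 4 members, for each list the called genes with the largest and smallest cytoplasmic change and the partners of their complex, and for each member the 5 genes with the highest correlation, of which 1 for Ncl is not reported here. Nothing says that the cultures were grown independently, so p-values measure the spread between these samples.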

Additional observations from a re-analysis of the deposited data

How the results depend on the processing

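Of 378 fitted values of the 4 genes under an alternative, 13 gained and 15 lost the call and 9 changed sign, 2 of them among those that lost it, and the cytoplasmic call of Npm3 held in all 19 alternatives run for it. The alternatives that added pseudogenes found by sequence, used coding length or joined the culture block with an offset, and the list counts under offsets and without N6L culture 3, were chosen after seeing the data. The cause of these changes was not tested. With 3 cultures per treatment, a log2 index of 1 was recovered in simulation for 23.6% of 89 genes, so differences of that size can be missed. All simulations gave a gene the same spread in every group and drew both fractions of a culture independently. Recovery under the pairing and the unequal spread of these libraries was not tested.

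In the cytoplasm Ncl gave 0.038 with library size alone, -0.69 (called) with the transcript offset and 0.20 with the replicate block by culture number. These numbers come from the sample titles, and nothing says whether cultures with the same number were grown together. Deviations of cultures with the same number correlated by 0.23 and 0.30 for number 1 and by 0.045 and 0.0076 for number 2, in cytoplasm and polysomes. Npm1 was called at -0.48 when only the cytoplasmic groups were fitted (5666 genes called in all), and Fbl was not called at -0.16 with the transcript offset. Leaving out each culture in turn gave -0.29 to 0.015 for Ncl and -0.74 to -0.50 for Fbl.

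In polysomes the fit without a filter called Ncl at -0.79 and Npm1 at -0.58, the transcript offset called Ncl at -0.86, and the coding offset called Ncl at -0.84 and Fbl at -0.46. Over the cultures left out Ncl ran from -1.30 to -0.45, Npm1 from -0.90 to -0.27 and Npm3 from -0.53 to -0.10.

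For polysomes against cytoplasm, the fit without a filter called Ncl in NT at -0.60 and Npm1 in N6L at -0.56. In N6L cells the transcript offset gave -0.31 for Ncl, 0.29 for Npm3 and -0.13 for Fbl, and the coding offset -0.53, 0.28 and 0.12, all not called. Library size alone gave 0.39 for Fbl, not called. The replicate block by culture called Npm1 at -0.65 (7460 genes called in all). The block with the transcript offset gave -0.35 for Ncl and -0.14 for Fbl, not called, and -0.50 for Npm1, called (4575 genes called in all). Leaving out cultures gave -1.85 to -0.94 for Ncl, -0.86 to -0.24 for Npm1 and 0.45 to 0.59 for Fbl. The block changed no other call of the 4 genes.

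The index of Fbl turned to -0.13 with the transcript offset and to -0.14 with the block and that offset, and over the cultures left out the index ran from -0.47 to 0.15 for Npm1, from -1.24 to -0.33 for Ncl and from 0.38 to 0.73 for Npm3. As CPM of the library total, N6L cytoplasm held 1350 of Ncl, 1338 of Npm1, 106 of Npm3 and 68.9 of Fbl, and NT polysomes 818 of Ncl, each more than 1 SD from the TMM value. Differences in the polysomal log2 ratios ran from -1.25 to 0.018 for Ncl to Npm3, from -0.85 to 0.25 for Npm1 to Npm3, from -0.66 to 0.19 for Npm1 to Fbl and from -0.060 to 0.19 for Npm3 to Fbl when a culture was left out.

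Counts over all genes moved by more than 1.5 times in places: 3935 genes called in the cytoplasm became 1295 without N6L culture 2, 2253 without NT culture 1 and 2173 without NT culture 4. In polysomes 1343 became 146, 203 and 623 without these cultures, 328 when only the polysomal groups were fitted, 895 with 1 technical replicate, 2034 with DESeq2, and 2893 and 2868 with the transcript and coding offsets. For the ratio in N6L 5415 became 1153 and 1653 without N6L cultures 2 and 3, and 2334 and 2290 with the offsets. For the ratio in NT 29 became 0 to 647, the first without NT culture 4 and the second without a filter, and for the index 0 became 114 without a filter. The fit of only the groups compared was not run for the index.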
